A study of Rattus norvegicus with 12 samples.

Results

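Prostaglandin synthesis and prostaglandin receptors were examined here through 10 rat genes chosen by name, namely the cyclooxygenases Ptgs1 and Ptgs2, the terminal synthases Ptges, Ptgds and Ptgis, and the receptors Ptger1, Ptger2, Ptger3, Ptger4 and Ptgir. Array probes were assigned to them through the RefSeq accession each probe carries, which gave 11 probes for 9 of the 10 genes, out of 30367 probes on the array. No probe matched Ptger1, so this receptor was not analysed here. The RNA came from L6 dorsal root ganglia, which hold the cell bodies of sensory neurons beside the spinal cord, of male rats of the inbred strain Fischer 344, and was hybridised to 12 one-colour arrays. The young group (young_AL) was 6 months of age with food available ad libitum. The old group on the same feeding (old_AL) was between 25 and 28 months of age. The restricted old group (old_CR) had the same age range, had been given food on 3 days a week from the age of 6 weeks, and took in about 40% fewer calories than old_AL. Each group had 4 arrays, and the design text gives 4 rats per group.

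Prostaglandins are made from arachidonic acid, which phospholipases release from membranes. Cyclooxygenases turn it into the unstable intermediate prostaglandin H, and terminal synthases turn that into prostaglandin E, D or I (prostacyclin). Each product acts on G protein-coupled receptors, and in sensory ganglia prostaglandin E and prostacyclin are known for sensitising nociceptors, the neurons that report painful stimuli, largely through cyclic AMP.

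Signal is given as a percentage of the 75th percentile of the same array, so it can be set between arrays for a given probe but not between probes. Differences are on the log2 scale, from limma, with its standard error (SE) and the Benjamini-Hochberg adjusted p over all 20849 genes and unnamed probes tested, and a gene passed where that p was below 0.05. The array of old_AL 1 stood apart in overall signal. Its 75th percentile was 7662 intensity units against 2634 to 3110 on the other arrays, and 4026 of its gene spots had uneven signal against 1 to 208. Values are therefore given from the other 11 arrays (n = 4 young_AL, 3 old_AL and 4 old_CR), with the fit of all 12 beside each difference that passed. Slide and age cannot be told apart, since 1 slide held the young_AL arrays and the other held both old groups. On the latter old_AL filled row 1 and old_CR row 2, so that row and diet cannot be told apart either. The p-values measure the spread between these arrays. All 7 pan-neuronal markers with a probe and all 9 nociceptor markers were well above background on each of the 11 arrays, and all 12 macrophage markers were too.

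Of the 8 genes whose level could be tested, Ptgs1 alone passed in old_AL against young_AL and was higher, Ptger4 alone passed in old_CR against old_AL and was lower, and Ptgs1 alone passed in old_CR against young_AL and was higher. Over all genes tested, 2.99% passed in old_AL against young_AL (1.85% higher), 1.06% in old_CR against old_AL (0.806% lower) and 2.32% in old_CR against young_AL (0.753% higher). An unadjusted p below 0.05 was reached by 4, 3 and 3 of the 8 genes, beside 23%, 26.3% and 18.3% of all genes. On all 12 arrays 0 of the 8 passed in any comparison with limma, beside 0.0287%, 0.00478% and 0.0143% of all genes, and 0 of the 8 had an unadjusted p below 0.05, beside 6.88%, 6.19% and 2.78%. The median log2 difference of the 8 genes was 0.32, -0.19 and 0.10 in the 3 comparisons, beside 0.04, -0.06 and -0.02 over all genes. All 8 genes were well above background on all 11 arrays, and Ptgs2 was on none of them.

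**Figure D1:**
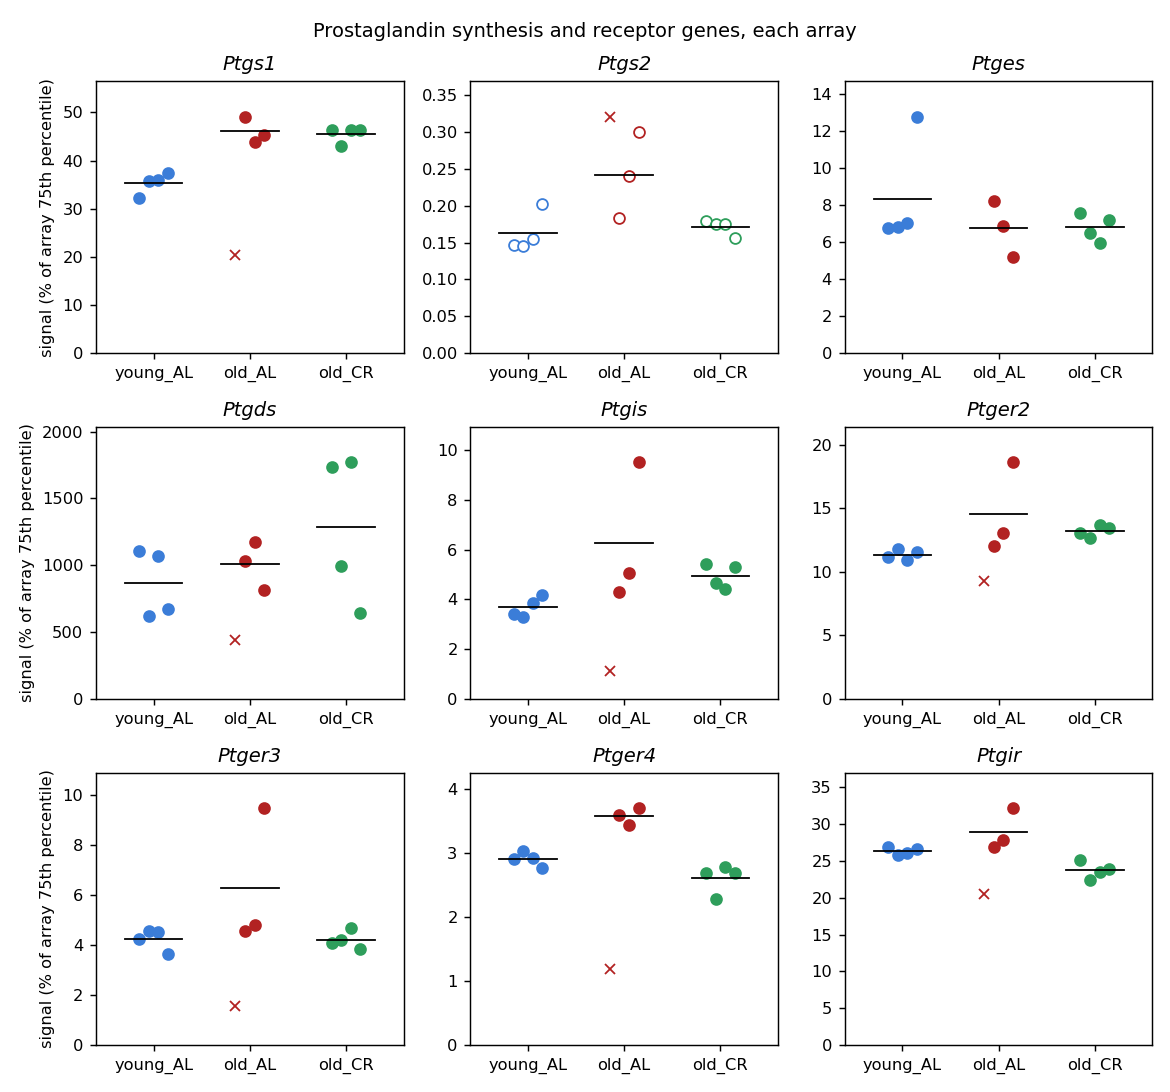
Signal of the 9 genes with a probe on each array, as a percentage of the 75th percentile of that array (vertical axes start at 0 and differ between panels); circles are arrays, open where the probe was not well above background, the cross is old_AL 1, and the line is the mean of a group without it. Ptgs1 lies at 32.3% to 37.4% in young_AL and at 43.0% to 49.2% on the old arrays other than old_AL 1, Ptger4 is highest in old_AL 2, 3 and 4 but lowest of all on old_AL 1, and every Ptgs2 circle is open.

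The promoters of the cyclooxygenase genes are shown because their transcripts stood on opposite sides of the detection limit. Each runs from 250 bases before to 50 bases after the annotated transcript start, on the strand of the gene, from RefSeq on the assembly GRCr8, and capitals mark matches to the motifs searched.
Ptgs1, chr3:39981169-39981468, plus strand: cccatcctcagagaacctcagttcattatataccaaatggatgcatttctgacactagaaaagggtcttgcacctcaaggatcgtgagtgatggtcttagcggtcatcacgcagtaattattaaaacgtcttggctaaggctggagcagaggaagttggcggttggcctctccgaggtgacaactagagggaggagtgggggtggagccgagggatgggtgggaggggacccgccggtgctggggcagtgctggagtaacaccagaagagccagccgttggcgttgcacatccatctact
Ptgs2, chr13:64713813-64714112, plus strand: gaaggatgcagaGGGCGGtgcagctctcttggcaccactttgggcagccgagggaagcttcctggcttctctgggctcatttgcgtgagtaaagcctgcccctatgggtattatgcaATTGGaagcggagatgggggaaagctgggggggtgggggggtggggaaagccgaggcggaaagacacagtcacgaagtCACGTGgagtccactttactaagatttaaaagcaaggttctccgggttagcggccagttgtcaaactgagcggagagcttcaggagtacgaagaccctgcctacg
The search covered both strands. It used the TATA box as TATAAA, the GC box as GGGCGG, the CCAAT box by those letters, the core of a cyclic AMP response element as TGACG, and the E box as CACGTG. The Ptgs1 window held none of them. The Ptgs2 window held a GC box starting at position -238 from the transcript start, a CCAAT box on the opposite strand at -133 and an E box at -55. Of 27457 rat promoter windows of the same length, 14.3% held the TATA box, 34.9% the GC box, 37.7% the CCAAT box, 22% the response element core and 6.7% the E box. Among the 9 of the 10 genes with a window in the table, 6 held a GC box, 2 a CCAAT box, 1 an E box and 0 a TATA box or the response element core. A match is a run of letters and not a measured binding site.

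Ptgs1, the constitutive cyclooxygenase, was higher in both old groups than in young_AL. Its brighter probe, present on 10 spots of each array and matched to the transcript NM_017043, gave 32.3%, 35.7%, 36.0% and 37.4% in young_AL 1 to 4. It gave 49.2%, 43.9% and 45.4% in old_AL 2, 3 and 4, and 46.3%, 43.0%, 46.3% and 46.3% in old_CR 1 to 4. No old array of these 7 overlapped a young array, while old_AL and old_CR overlapped each other.

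In old_AL against young_AL, Ptgs1 rose by 0.38 ± 0.06 (log2, SE, n = 3 against 4, limma adjusted p = 0.0202), which is 1.31-fold. In old_CR against young_AL it rose by 0.36 ± 0.06 (n = 4 against 4, limma adjusted p = 0.0171), 1.29-fold. Between old_CR and old_AL the Ptgs1 difference was -0.02 ± 0.06 with a 95% interval from -0.15 to 0.11 (limma adjusted p = 0.856). With all 12 arrays, where old_AL 1 gave 20.4%, below every other array, the difference with age was 0.09 ± 0.24 (adjusted p = 0.82) and that of old_CR against young_AL was 0.36 ± 0.24 (adjusted p = 0.999983). The difference between the old groups turned to 0.27 ± 0.24 there (adjusted p = 0.643).

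A second probe of Ptgs1, on 2 spots, was well above background on 8 of the 11 arrays and gave 0.363% to 1.37% over them, with all 3 groups overlapping. Its difference was 0.32 ± 0.43 (limma adjusted p = 0.668) in old_AL against young_AL and -0.19 ± 0.40 (adjusted p = 0.844) in old_CR against young_AL. With the mean of both probes the age difference was 0.35 (adjusted p = 0.349), and that of old_CR against young_AL was 0.09 (adjusted p = 0.863). When each of the 11 arrays was dropped in turn, dropping young_AL 2 or young_AL 3 ended the age call (adjusted p = 0.0529 or 0.0611). So did a fit of old_AL and young_AL alone (adjusted p = 0.108). The call of old_CR against young_AL ended without young_AL 3 (adjusted p = 0.0566), old_CR 1 (adjusted p = 0.0602) or old_CR 4 (adjusted p = 0.0583).

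Macrophages are a known site of Ptgs1. The summed signal of the 12 macrophage markers was 790% to 1100% in young_AL, 1223% to 1736% in old_AL and 1001% to 1336% in old_CR. In old_AL against young_AL 4 of the 12 rose and 0 fell (1.85% and 1.14% of all genes), with a median log2 difference of 1.001, and in old_CR against young_AL 2 rose (0.753% of all genes), with a median of 0.48. In old_CR against old_AL, where the Ptgs1 difference was -0.02, the macrophage median was -0.41 with 0 of 12 passing. On old_AL 1, left out for its signal, Ptgs1 was lowest and the macrophage sum was the highest of the 12 arrays, at 6176%. The fibroblast (13186%), endothelial (2272%) and nociceptor (45840%) sums were also the highest there. Its platelet (255%) and meningeal (130%) sums were the lowest. Neutrophil markers, of which 8 of 9 had a probe and 4 were tested, summed to 38.6% to 99.9% in young_AL, 93.7% to 307% in old_AL and 136% to 192% in old_CR, so that old_CR lay wholly above young_AL. Between 3 and 6 of the 8 were well above background on an array. Of the 4 tested, 2 rose with age (median 1.86) and 1 rose in old_CR against young_AL (median 1.39). The part of macrophages or neutrophils in the level of Ptgs1 was not tested, and in ganglion RNA more cells of a type cannot be told apart from more transcript per cell. Markers of platelets, which also carry this enzyme, overlapped between the groups, with summed signals of 477% to 604% in young_AL, 491% to 520% in old_AL and 463% to 504% in old_CR over 6 of 8 markers with a probe. Gp1bb carried most of this sum (mean 438%, with Pf4 next at 44.7%), so the overlap is largely that of 1 probe. With limma 0 of the 6 passed in any comparison.

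Ptgs2, the inducible cyclooxygenase, was not well above background on any of the 11 arrays. Its probe gave 0.147%, 0.146%, 0.155% and 0.202% in young_AL, 0.183%, 0.239% and 0.300% in old_AL 2, 3 and 4, and 0.179%, 0.175%, 0.176% and 0.157% in old_CR. No fold is given, because all groups lay below the detection limit. On old_AL 1 an outlier spot of the pair was left out of the level, which was 0.321%. The probe met the rule for being well above background there, but that rule counted the outlier spot too.

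The synthases did not pass in any comparison with limma. Ptges, the inducible prostaglandin E synthase, had a single spot per array and gave 6.79%, 6.83%, 7.02% and 12.8% in young_AL, 8.24%, 6.90% and 5.20% in old_AL 2, 3 and 4, and 7.60%, 6.48%, 5.94% and 7.20% in old_CR. The old groups spread around the level of 3 of the young arrays, and young_AL 4 stood above all other arrays. The difference in old_AL against young_AL was -0.27 ± 0.24 (95% interval -0.80 to 0.26, limma adjusted p = 0.511), and without young_AL 4 it was -0.05. The spot of old_AL 1 carried an outlier flag and was missing from the fit of 12 arrays, which for this gene has n = 3 in old_AL.

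Ptgds, the lipocalin-type prostaglandin D synthase made by the membranes around nervous tissue and by glia, varied more between arrays of a group than between the groups. It gave 1105%, 625%, 1072% and 673% in young_AL, 1034%, 1178% and 817% in old_AL 2, 3 and 4, and 1735%, 992%, 1770% and 647% in old_CR. The groups overlapped, and old_CR held the highest array of the 11, old_CR 3, and an array close to the lowest, old_CR 4. The difference was 0.25 ± 0.37 (95% interval -0.58 to 1.08, limma adjusted p = 0.704) with age and 0.25 ± 0.37 (95% interval -0.58 to 1.07, adjusted p = 0.689) in old_CR against old_AL. The 7 of 9 meningeal markers with a probe had summed signals of 239% to 328% in young_AL, 236% to 274% in old_AL and 212% to 244% in old_CR, and 0 of the 7 passed in any comparison with limma. The part of meningeal cells in the Ptgds level was not tested.

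Ptgis, the prostacyclin synthase of vessel walls and fibroblasts, gave 3.43%, 3.28%, 3.87% and 4.17% in young_AL, 4.29%, 5.05% and 9.50% in old_AL 2, 3 and 4, and 5.42%, 4.68%, 4.41% and 5.32% in old_CR. All old arrays of these 7 lay above all young arrays, with old_AL 4 far above the others. The difference with age was 0.69 ± 0.23 (limma adjusted p = 0.129), or 0.34 without old_AL 4, and that of old_CR against young_AL was 0.43 ± 0.22 (adjusted p = 0.338). Neither passed. The 9 markers of pericytes and smooth muscle summed to 219% to 269% in young_AL, 259% to 366% in old_AL and 219% to 279% in old_CR. The 7 of 8 fibroblast markers with a probe summed to 4001% to 5061% in young_AL, 3315% to 4501% in old_AL and 2749% to 3900% in old_CR. The sum of old_CR thus lay wholly below that of young_AL. It was led by Col1a2 (mean 1935%) and Dcn (993%). Taken gene by gene, the median log2 difference there was 0.01, and 1 of the 7 passed and was lower (2.32% of all genes passed). The 7 of 8 endothelial markers with a probe overlapped between all groups, at 400% to 459%, 384% to 456% and 373% to 415% in the same order. The part of these cells in the Ptgis level was not tested.

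**Figure D2:**
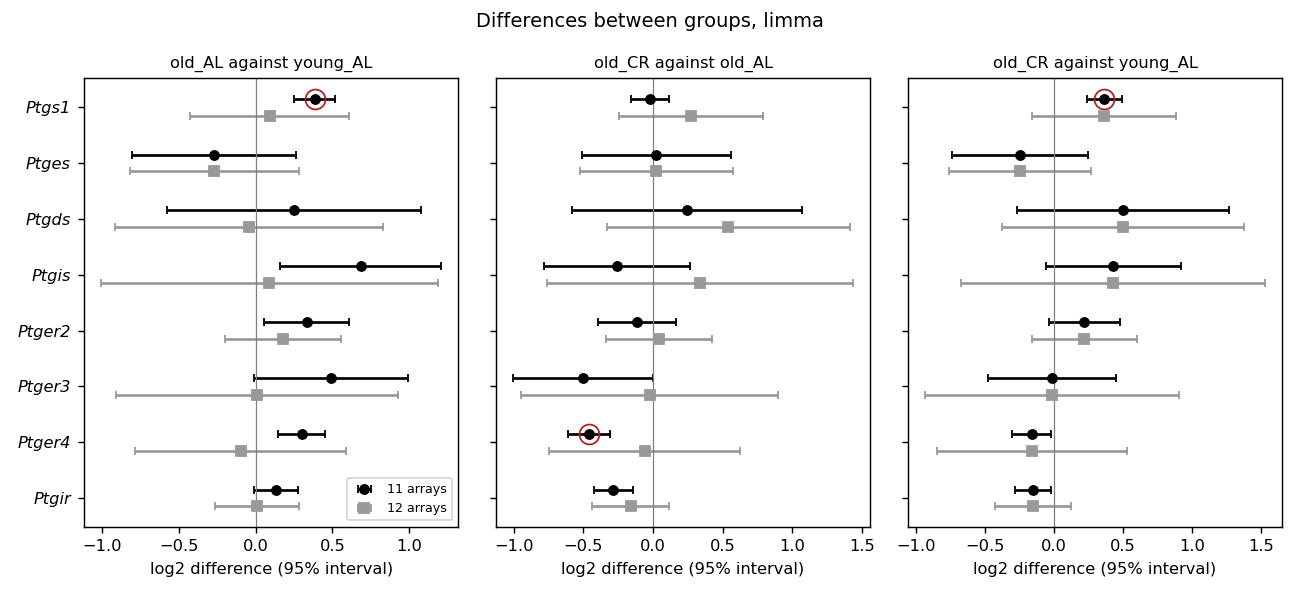
Log2 difference of the 8 tested genes in the 3 comparisons (points, with 95% intervals of the fit), on 11 arrays in black and on 12 in grey, with a red ring where the adjusted p was below 0.05. Rings mark Ptgs1 at 0.38 and 0.36 in both comparisons with young_AL and Ptger4 at -0.46 in old_CR against old_AL, and no grey point has one.

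Among the receptors, Ptger4 (EP4), which raises cyclic AMP on binding prostaglandin E, was lower in old_CR than in old_AL. Its probe, matched to NM_032076, gave 2.91%, 3.04%, 2.92% and 2.77% in young_AL, 3.60%, 3.44% and 3.70% in old_AL 2, 3 and 4, and 2.69%, 2.29%, 2.78% and 2.69% in old_CR. The arrays of old_AL lay above those of both other groups without overlap, while old_CR and young_AL overlapped at a single pair of arrays.

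In old_CR against old_AL, Ptger4 fell by 0.46 ± 0.07 (log2 difference -0.46, n = 4 against 3, limma adjusted p = 0.0321), to 0.728 of the level in old_AL. In old_AL against young_AL its difference was 0.30 ± 0.07 (limma adjusted p = 0.05001), just short of the threshold, and in old_CR against young_AL it was -0.16 ± 0.06 (adjusted p = 0.215). The first pair of these comparisons shares the old_AL arrays, so their values are not independent. The difference with age passed in 2 of the 12 changes of processing and in 1 of the 11 fits without a further array.

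The Ptger4 call depended on the arrays, the scaling and the groups fitted. On old_AL 1 the gene was not well above background, at 1.19%, and with all 12 arrays the difference between the old groups was -0.06 ± 0.31 (adjusted p = 0.922) and that with age was -0.10 ± 0.31 (adjusted p = 0.852). After quantile normalization the difference between the old groups was -0.07 (adjusted p = 0.748) and that with age was -0.07 (adjusted p = 0.76). With each of the 11 arrays dropped in turn it passed in 5 fits, and ended without young_AL 2, young_AL 3, old_AL 4, old_CR 1, old_CR 3 or old_CR 4 (adjusted p from 0.0501 to 0.0966), with values from -0.49 to -0.40 over the 11. In a fit of the old groups alone the same -0.46 did not pass (adjusted p = 0.123).

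The summed macrophage markers of old_AL and old_CR overlapped, and 0 of the 12 passed between those groups, with a median log2 difference of -0.41. The 8 markers of T and NK cells summed to 69.8% to 170% in old_AL and 42.2% to 68.3% in old_CR, with 0 of the 8 passing with limma and a median of -1.08. The part of these cells in the Ptger4 difference was not tested. The 9 nociceptor markers had a median of 0.01 in that comparison, with 0 passing.

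Ptger2 (EP2), the other prostaglandin E receptor that raises cyclic AMP, gave 11.2%, 11.8%, 10.9% and 11.6% in young_AL, 12.1%, 13.1% and 18.6% in old_AL 2, 3 and 4, and 13.1%, 12.6%, 13.7% and 13.5% in old_CR. Every old array of these 7 lay above every young one. The difference with age was 0.33 ± 0.12 (limma adjusted p = 0.156), or 0.14 without old_AL 4, and in old_CR against young_AL it was 0.22 ± 0.11 (adjusted p = 0.357). The latter passed in a fit of those groups alone, at the same 0.22 (adjusted p = 0.034). It passed in 2 of the 12 changes of processing and in 1 of the 11 fits without a further array. On all 12 arrays it did not pass (0.22 ± 0.17, adjusted p = 0.999983).

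Ptger3 (EP3), which lowers cyclic AMP, had a pair of probes. The brighter gave 4.26%, 4.56%, 4.51% and 3.64% in young_AL, 4.57%, 4.82% and 9.48% in old_AL 2, 3 and 4, and 4.07%, 4.19%, 4.67% and 3.85% in old_CR. Of these 11 arrays only old_AL 4 stood away from the rest, and old_AL 2 lay just above the highest young array. The difference with age was 0.49 ± 0.22 (limma adjusted p = 0.226), or 0.15 without that array, and in old_CR against old_AL it was -0.50 ± 0.22 (adjusted p = 0.189), or -0.17 without it. The other probe gave 0.57 ± 0.34 and -0.49 ± 0.34 in these comparisons and did not pass either (adjusted p = 0.343 and 0.368). After normexp the difference between the old groups passed for the brighter probe (-0.49, adjusted p = 0.0373). There 4693 of all genes passed, against 222 in the reported fit.

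Ptgir, the prostacyclin receptor, which also raises cyclic AMP, gave 27.0%, 25.8%, 26.2% and 26.6% in young_AL, 26.9%, 27.9% and 32.2% in old_AL 2, 3 and 4, and 25.1%, 22.5%, 23.5% and 24.0% in old_CR. Arrays of old_CR lay below those of both other groups, and old_AL and young_AL overlapped. The difference in old_CR against old_AL was -0.28 ± 0.06 (95% interval -0.42 to -0.14), with a limma adjusted p of 0.061 that missed the threshold. It passed in 3 of the 12 changes of processing, namely normexp background correction (-0.25, adjusted p = 0.0131), an intensity trend (adjusted p = 0.0401) and array weights (adjusted p = 0.0231). After normexp 4693 of all genes passed there, against 222 in the reported fit. It passed in 1 of the 11 fits without a further array. On all 12 arrays it was -0.16 ± 0.12 (adjusted p = 0.643). Against young_AL the difference was -0.15 ± 0.06 (adjusted p = 0.207).

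Groups that do not overlap were common on these arrays. In old_AL against young_AL 5 of the 8 genes did not overlap (Ptgs1, Ptgis, Ptger2, Ptger3 and Ptger4), beside 19.5% of all genes with a value on each of the 11 arrays. In old_CR against old_AL 2 did not (Ptger4 and Ptgir), beside 23.3%, and in old_CR against young_AL 4 did not (Ptgs1, Ptgis, Ptger2 and Ptgir), beside 15.8%. The array of old_AL 4 was the highest of the 11 for Ptgis, Ptger2, Ptger3, Ptger4 and Ptgir. It correlated less with the rest of the set (median 0.971) than did the other 10 of the 11 (0.985 to 0.994), and it had 190 uneven spots and 662 outlier spots (young_AL 4 had 208 and 707). The part of this array's quality in those values was not tested.

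**Figure D3:**
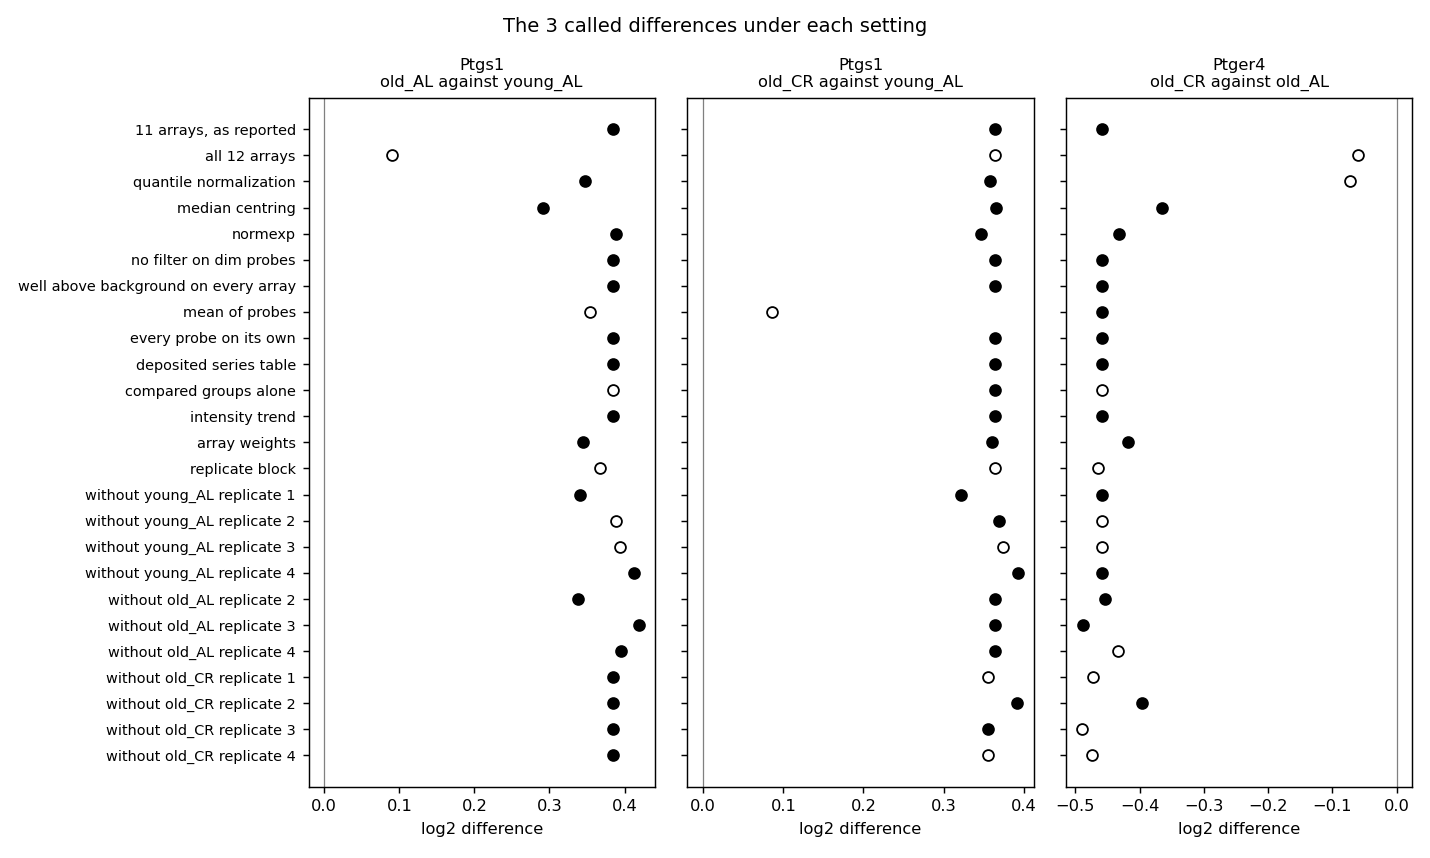
Log2 difference of the 3 results that passed, under each processing setting and with each further array left out; filled points have an adjusted p below 0.05 and open points do not. Ptger4 moves to -0.06 with all 12 arrays and to -0.07 after quantile normalization, and Ptgs1 with age moves to 0.09 with all 12. Ptgs1 in old_CR against young_AL moves to 0.09 with the mean of probes.

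The genes whose log2 values over the 11 arrays lay closest to those of the 3 genes with the smallest p, after centring each gene on its own mean, were listed by root mean square difference. For Ptgs1 they were Crabp1, Adora2a and Cirbp (0.07, 0.08 and 0.08). For Ptger4 they were Mutyh, Gna12 and Cdkn1a (0.08, 0.09 and 0.09), and for Ptgir Cnfn, Lrp6 and Arhgef7 (0.03, 0.04 and 0.04). The standard deviation over the 11 arrays was 0.20 for Ptgs1, 0.21 for Ptger4 and 0.14 for Ptgir.

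Of 34 other genes of prostanoid and leukotriene metabolism and signalling, 32 had a probe and 28 were tested. In old_AL against young_AL 0 rose, 2 fell and 26 did not pass (over all genes tested 1.85% rose and 1.14% fell), with a median log2 difference of 0.14 beside 0.04 over all genes tested. In old_CR against old_AL and in old_CR against young_AL 0 of the 28 passed with limma, beside 1.06% and 2.32% of all genes, and the medians were -0.08 and -0.04 beside -0.06 and -0.02 over all genes. An unadjusted p below 0.05 was reached by 10 of the 28 with age (23% of all genes), 8 between the old groups (26.3%) and 7 in old_CR against young_AL (18.3%).

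**Figure D4:**
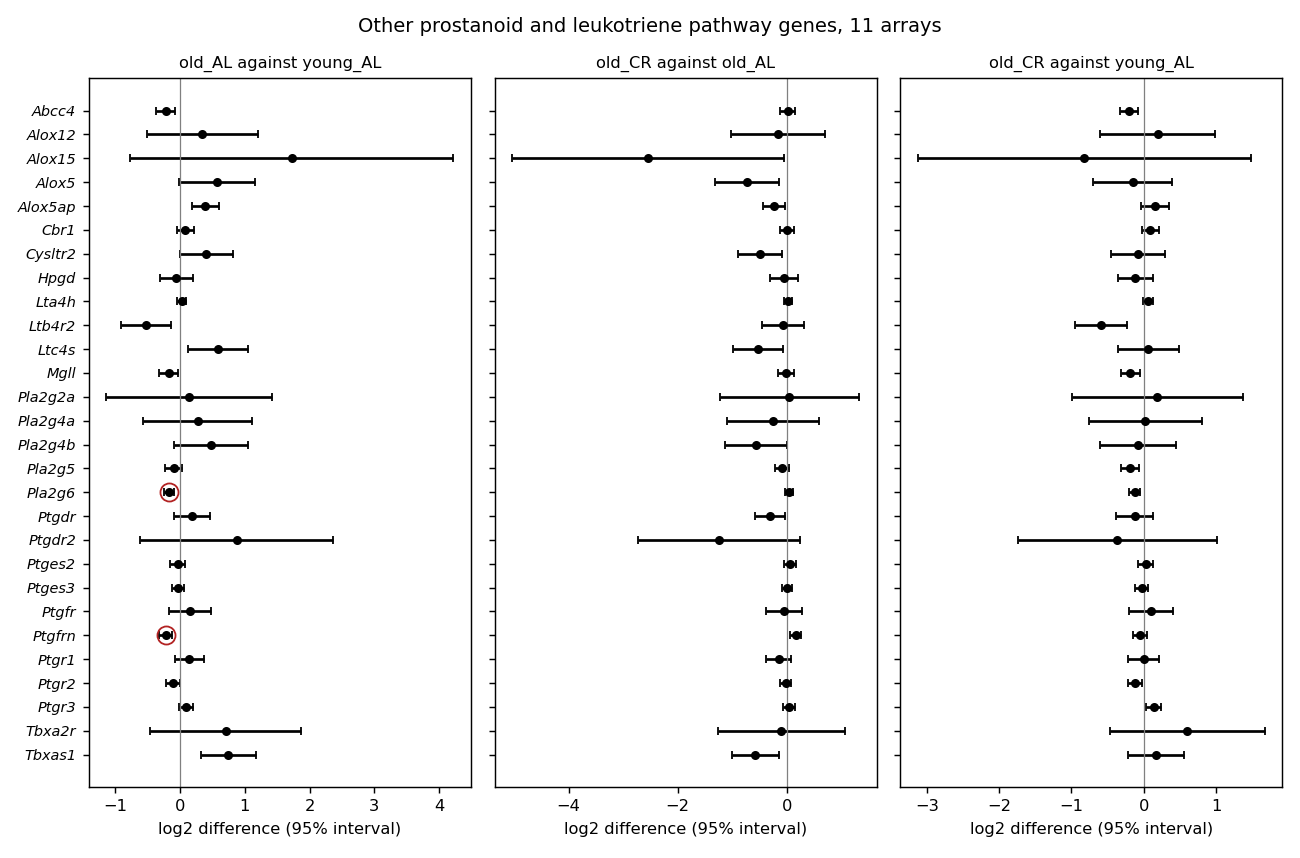
Log2 difference with its 95% interval for the 28 other prostanoid and leukotriene genes tested, on 11 arrays, with a red ring where the adjusted p was below 0.05. Rings mark Pla2g6 at -0.17 and Ptgfrn at -0.22 in old_AL against young_AL, and the other comparisons have none.

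Pla2g6, a calcium-independent phospholipase A that releases fatty acids from membranes, gave 594% to 623% in young_AL, 523% to 562% in old_AL and 555% to 568% in old_CR. It fell by 0.17 ± 0.04 with age (log2 difference -0.17, limma adjusted p = 0.0397), and all old arrays lay below all young ones. Ptgfrn, a membrane protein that binds and inhibits the prostaglandin F receptor, gave 104% to 114% in young_AL, 90.6% to 94.4% in old_AL and 99.4% to 109% in old_CR, and fell by 0.22 ± 0.04 with age (log2 difference -0.22, adjusted p = 0.0398). On all 12 arrays neither passed (-0.35 with adjusted p = 0.577, and -0.04 with adjusted p = 0.891). Of the 11 fits without a further array, Pla2g6 passed in 1 and Ptgfrn in 0.

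The thromboxane synthase Tbxas1, an enzyme of macrophages and platelets, gave 16.3%, 10.3%, 13.8% and 17.5% in young_AL, 25.4%, 25.2% and 20.9% in old_AL 2, 3 and 4, and 19.1%, 16.95%, 12.998% and 15.3% in old_CR. The old_AL arrays lay above both other groups. Its difference was 0.74 ± 0.19 with age (limma adjusted p = 0.0656) and -0.57 ± 0.19 in old_CR against old_AL (adjusted p = 0.112), and neither passed. Alox5ap, which presents arachidonic acid to the lipoxygenase of leukotriene synthesis, differed by 0.39 ± 0.09 with age (adjusted p = 0.0528), from 5.81% to 7.24% in young_AL to 7.87% to 8.73% in old_AL, and also missed the threshold.

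The remaining named genes of this list did not pass. The prostaglandin exporter Abcc4 differed by -0.22 ± 0.06 with age (limma adjusted p = 0.0832), though its second probe passed at -0.26 when every probe was tested on its own (adjusted p = 0.0337). The monoacylglycerol lipase Mgll, which supplies arachidonic acid in neural tissue, differed by -0.18 ± 0.06 with age (adjusted p = 0.151). The secreted phospholipase Pla2g5 and the leukotriene B receptor Ltb4r2 differed by -0.19 ± 0.05 and -0.59 ± 0.16 in old_CR against young_AL (adjusted p = 0.102 and 0.0888). The Ltb4r2 probe gave 0.321% to 0.674% over the 11 arrays and was well above background on 7 of them, and its difference was -0.10 after normexp.

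Of 25 genes of cyclic AMP and G protein signalling, through which these receptors act, 23 were tested. With limma 0 passed with age, 0 in old_CR against young_AL and 1 in old_CR against old_AL, where it rose and 22 did not pass, beside 0.259% of all genes that rose there. An unadjusted p below 0.05 was reached by 3 of the 23 with age (23% of all genes), 5 in old_CR against young_AL (18.3%) and 4 in old_CR against old_AL (26.3%). Pde4d, a phosphodiesterase that breaks down cyclic AMP, was the gene that passed. It gave 24.5%, 23.9% and 23.6% in old_AL 2, 3 and 4 and 31.9%, 28.4%, 28.9% and 31.3% in old_CR, and rose by 0.32 ± 0.06 (limma adjusted p = 0.0447). Its levels in young_AL, 24.7% to 28.5%, overlapped those of old_CR and lay above those of old_AL 2, 3 and 4. A second probe gave 0.07 (adjusted p = 0.684), the mean of the probes 0.20, and all 12 arrays 0.23 (adjusted p = 0.643), and the call held in 2 of the 11 fits without a further array.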

How the data were processed

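RNA of L6 dorsal root ganglia was Cy3-labelled for one-colour Agilent arrays, per the labels' protocols. Per the file headers, the deposited intensities are linear and were background-subtracted and detrended array by array in Agilent Feature Extraction 10.7, without scaling between arrays. A deposited matrix held the same intensities (largest difference 0, column medians 444 to 937), so it is linear and uncentred. The number of arrays and the signal over background limit the precision.

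The log2 intensity minus the 75th percentile of its array entered the tests, without control spots or outlier-flagged spots, averaged over the spots of a probe. Probes well above background (at least a share of 0.5 of their spots) on at least 4 arrays, with at least 2 values in each group, were kept, and the brightest probe stood for a gene. That share counted outlier-flagged spots too. Accessions were matched to RefSeq symbols (17998 of 30367 probes), for names alone because the arrays carry a tag of an older build. Groups were fitted together in limma 3.58.1 under R 4.3.3, and the fit was checked on simulated data. Samples were numbered by the replicate number in the source names. No source says whether ganglia were pooled.

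The genes and lists were chosen with earlier results of these data known, as was leaving out old_AL 1, which was decided on its signal measures. All 10 genes are described. Other pathway genes are named if they passed or had one of the 8 smallest p-values, signalling genes if they passed, and similar genes as the 3 closest to each of the 3 genes with the smallest p. Alternatives were all 12 arrays, 12 changes of processing and each further array left out.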

Additional observations from a re-analysis of the deposited data

Results flagged for a closer look

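Among 32 sets of 4 arrays (a probe in a group, with old_AL 1 included), 5 held an array separated from the rest by most of the range of the group (Dixon's test, 95% level). Chance gives about 1 in 20 such sets. Ptgs1 was low on old_AL 1 (20.4% of the 75th percentile, against 43.9% to 49.2% on the other old_AL arrays), and Ptger4 was low on the same array (1.19% against 3.44% to 3.70%). Ptges was high on young_AL 4 (12.8% against 6.79% to 7.02%), where a single spot measured it. Ptgs1 on old_CR 2 (43.0% against 46.3% on each of the others) and Ptgs2 on old_CR 4 (0.157% against 0.175% to 0.179%, none well above background) met the same criterion within narrow ranges. The causes were not tested.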

How the results depend on the processing

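The number of the 8 tested genes that passed was 1 in each comparison. It was 0 in all 3 with all 12 arrays and with the replicate block. With age it was 2 after normexp, 2 where all arrays had to be well above background, 0 when probes of a gene were averaged and 0 with the compared groups alone. Between the old groups it was 0 after quantile normalization, 3 after normexp, 0 with the compared groups alone, 2 with an intensity trend and 2 with array weights. In old_CR against young_AL it was 0 with the mean of probes, 2 with the compared groups alone and 2 with array weights. Over all genes normexp gave 3795 calls with age and 4693 between the old groups, and array weights 1914 in old_CR against young_AL. The compared groups alone gave 0 between the old groups. The reported fit gave 624, 222 and 484 in the 3 comparisons. Of the 8 genes, 0 to 2 passed in each comparison when a further array was left out. In the fits of 0 other than the left-out arrays, limma gave 0 to 5 genes with an unadjusted p below 0.05. For the other pathway genes all 12 arrays gave 0 with age (3 at an unadjusted p below 0.05), and leaving out an array gave 0 to 1 with age, 0 between the old groups and 0 to 2 in old_CR against young_AL. No result that passed changed sign, and of 576 differences recomputed 23 did, from values of at most 0.30 in size that had not passed. Many of the 576 could not change. The deposited matrix, the other filters, the intensity trend and the compared groups alone left the differences of these genes as they were. So did leaving out an array of the group not compared. The count is therefore no measure of how stable the signs are.

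Over the whole array 624, 222 and 484 genes passed in the 3 comparisons, against 6, 1 and 3 on all 12 arrays. Changes of processing gave 20 to 3795, 0 to 4693 and 21 to 1914, and further left-out arrays 67 to 392, 1 to 925 and 40 to 875. Of these calls the higher ones made up 61.9%, 24.3% and 32.4%, against 29.4%, 56.4% and 33.0% after quantile normalization, 14.8%, 84.7% and 29.1% after median centring and 86.3%, 10.6% and 36.1% after normexp. Arrays with the same replicate number did not deviate together (correlations of -0.09 to 0.09 over 10 pairs, 0 above 0.1), so the number does not pair them, and the replicate block moved the Ptgs1 difference with age to 0.37 (adjusted p = 0.0889), left that of old_CR against young_AL at 0.36 (adjusted p = 0.0959) and gave -0.47 for Ptger4 between the old groups (adjusted p = 0.0961). The cause of these changes was not tested.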
